A study of Mus musculus with 6 samples.

Results

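The regions described here are 794 of the 4557 autosomal intervals in the authors' list of dynamic transcription factor peaks, namely those that crowd together along the chromosomes. Each autosome was divided from its first base into windows of 5 Mb, the centres of the listed intervals were counted in each window, and every interval in a window with 18 or more centres was taken. The regions were chosen by the count of centres per window, so the counts are a description and support nothing further. The whole list held 4669 intervals, of which 112 lay on chromosome X and were left out by the rule. The other 3763 autosomal intervals served as the comparison.

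The study mapped protein binding by chromatin immunoprecipitation and sequencing (ChIP-seq) in mouse bone marrow cells. They were Lin-Sca-1+c-Kit+ progenitors (cells without markers of mature lineages and with a pair of stem and progenitor surface proteins) that carried the MLL-AF9 fusion and had been transformed in culture. All 6 libraries came from such cells, grown with interleukin-3 and interleukin-6 at 10 ng/mL each and stem cell factor at 20 ng/mL. There were 6 groups of 1 library each: C/EBPα (Cebpa) in untreated cells and in cells given an LSD1 inhibitor, PU.1 in both conditions, LSD1 without treatment, and input chromatin from untreated cells, for which no antibody was used. The labels' treatment protocol describes GSK-LSD1, an irreversible LSD1 inhibitor, dissolved in DMSO for work in culture. The cells were a model transformed in vitro, and the labels do not say how many mice or cultures they came from.

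PU.1 and C/EBPα are transcription factors that act together at enhancers of myeloid genes and drive granulocyte and macrophage differentiation. LSD1 removes methyl groups from lysine 4 of histone H3 and works in repressive complexes, often with GFI1 at myeloid enhancers. MLL-AF9, the product of a chromosomal translocation in myeloid leukaemia, holds progenitors in an immature, self-renewing state. Enhancers bound by myeloid factors are often found in groups around a gene they serve, and genes that share regulation can lie near each other. Per the series title, the study asked what LSD1 inhibition does to enhancers used by these factors. The list is a single combined set of positions on mouse build mm9 and carries no signal, factor or direction. Gain and loss of binding, and PU.1 and C/EBPα, were therefore not separated for any region. Gene content and sequence of the regions were not analysed here.

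The dense windows numbered 39 of the 503 windows needed to reach the last interval on each autosome. They made up 7.94% of that length, 195 Mb in all, and held 17.4% of the autosomal intervals. Their density was 4.07 intervals per Mb, against 1.66 per Mb in the other windows. The counts ran from 18 to 27 with a median of 20, while the other windows held 8.11 on average (SD 4.51 over windows). The threshold cut through a continuous range: 9 windows held exactly 18 centres and brought in 162 intervals, and 12 windows held 17 and left out 204. The intervals covered 844 kb, which was 0.433% of the bases of dense windows, against 0.166% of the other windows.

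Dense windows were found on 16 of the 19 autosomes. Chromosomes 2, 3 and 6 had 4 each, with 85, 80 and 83 intervals. Chromosome 19 gave the highest share, with 47 of its 155 intervals (30.3%) in 2 dense windows, followed by chromosome 6 with 29.6% of 280 and chromosome 3 with 27.3% of 293. Chromosome 19 also held the most intervals for its length, at 25.4 per 10 Mb. Chromosomes 7, 12 and 18 had no dense window, and their fullest windows held 17, 15 and 13 centres. Chromosome 7 had 256 intervals in all, more than 7 of the autosomes that had a dense window. Relative to its length it held 16.8 intervals per 10 Mb. Among the autosomes with a dense window, only chromosomes 8 and 14 held fewer per 10 Mb.

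**Figure D1:**
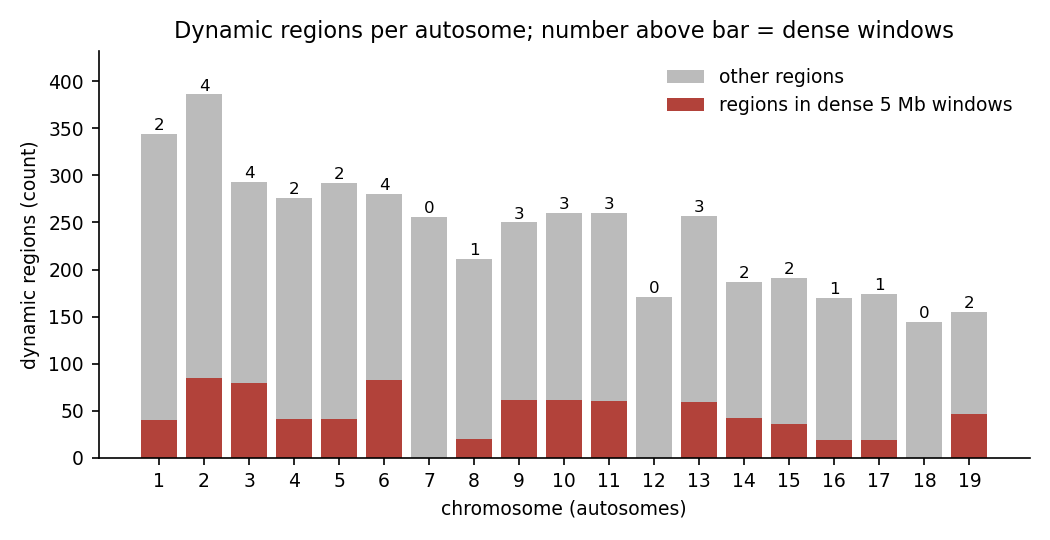
Number of listed intervals on each autosome, divided into those in dense 5 Mb windows (red) and the others (grey), with the number of dense windows printed above each bar. Chromosomes 7, 12 and 18 have none, while chromosomes 2, 3 and 6 have 4 each.

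The fullest window lay on chromosome 6 from 50000001 to 55000000 and held 27 intervals. They stood in 2 accumulations, with 8 in the first 1 Mb and 10 in the fourth, and none of them exceeded 1576 bp. The window on chromosome 9 from 65000001 to 70000000 held 25, of which 9 lay in its last 1 Mb. The next window on that chromosome, from 70000001 to 75000000, was also dense with 18, so the 2 windows together held a run of 10 Mb. Chromosome 2 had a pair of windows with 24 intervals that differed in layout. In the one from 25000001 to 30000000 the intervals were spread over all 5 bins of 1 Mb with 3 to 7 in each. In the one from 65000001 to 70000000, 12 of the 24 lay in the last 1 Mb, and each of the next-to-first and middle bins held 1. In neither window did a centre have another within 12.5 kb.

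The remaining windows among the 10 fullest lay on chromosomes 19, 3, 4, 14 and 1. Chromosome 19 had 24 intervals from 10000001 to 15000000, 11 of them in the second 1 Mb and none in the fourth, and 23 from 30000001 to 35000000. Chromosome 3 had 23 from 100000001 to 105000000, 11 of them in the first 1 Mb. Chromosome 4 had 23 from 60000001 to 65000000, with 10 in the fourth 1 Mb and none in the fifth. Its first and second 1 Mb held 7 and 5, of 869 to 1084 bp, each with its nearest centre 69.3 to 101 kb away. Between these extremes the distances were much alike, at 75.7 to 80.2 kb. Whether this stretch holds repeated sequence was not tested. Chromosome 14 had 23 from 60000001 to 65000000, and chromosome 1 had 22 from 35000001 to 40000000, of which 10 lay in the second 1 Mb. In 9 of these 10 fullest windows the fullest 1 Mb held 8 or more intervals.

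Adjacent dense windows occurred 3 times. Besides the pair on chromosome 9, chromosome 3 had 23 and 19 intervals in the windows from 100000001 to 110000000, and chromosome 10 had 21 and 20 in the windows from 90000001 to 100000000. In the pair on chromosome 10 each window contained a long empty stretch between neighbouring centres, of 1910 kb and 2086 kb. These were the longest distances between neighbouring centres of the same dense window, and empty ends of windows were not counted. The other 33 dense windows stood alone. Along the chromosomes, 26 of the 39 dense windows were centred beyond the midpoint and 13 before it, whereas the other windows were divided 231 to 233. No dense window was centred in the first 10% of a chromosome, where 48 of the 464 other windows were. In the last 10% there were 5 dense windows and 56 others. These placements were not tested, and windows were not corrected for stretches on which no read can be placed.

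Within the windows the intervals were spread out unevenly but seldom emptied a large part. Every 1 Mb bin was occupied in 31 of the 39 windows, and the other 8 had 1 empty bin. The fullest 1 Mb bin held 36.8% of a window's intervals at the median (SD 7.64 over windows), with a range from 25% to 55.6%. The lowest value was that of chromosome 8 from 70000001 to 75000000, where the bins held 3 to 5 of 20 intervals. The highest was on chromosome 9 from 85000001 to 90000000, where 10 of 18 lay in the last 1 Mb. The longest stretch between neighbouring centres of the same window was 894 kb at the median over windows and ran from 507 to 2086 kb. Empty window ends were not counted. The typical distance between neighbouring centres was far shorter, with window medians from 62.0 to 235 kb.

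**Figure D2:**
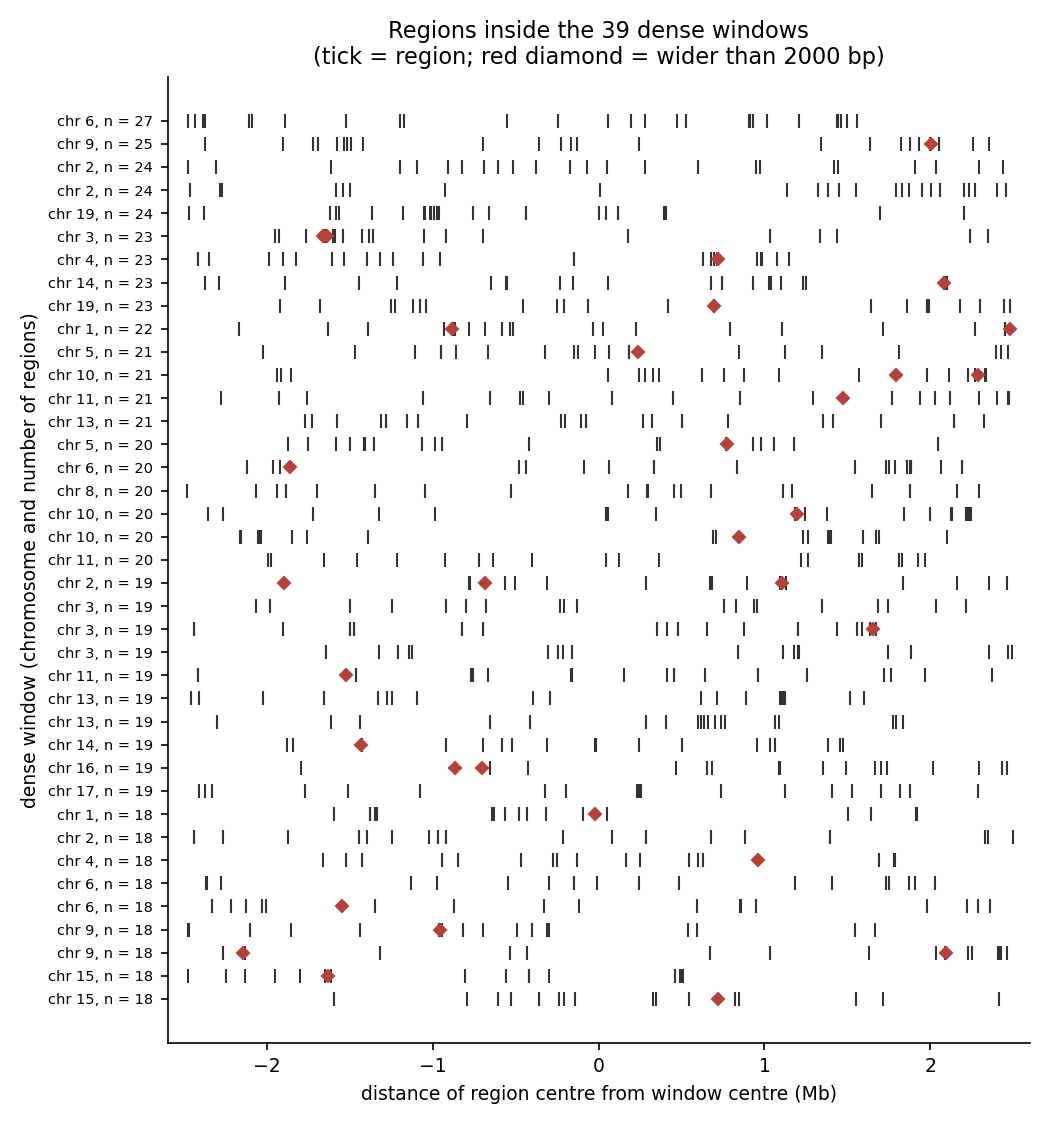
Positions of the intervals in the 39 dense windows, each row a window labelled by chromosome and number of intervals, ordered from the fullest down, with the distance of each centre from the middle of the window in Mb on the horizontal axis. Ticks are intervals and red diamonds those wider than 2000 bp, which occur in 25 of the windows.

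The position of the window edges decided which intervals qualified to a large extent. When the windows were moved by 2.5 Mb, 40 windows reached 18 centres and held 784 intervals, nearly the same numbers. Of the 794 intervals, however, only 334 were also in a dense window of the moved tiling, which was 42.1% of them and 42.6% of the moved set. Windows fell into 3 kinds. In 5 windows every interval was kept, 122 in all: the windows with 27 on chromosome 6, 25 on chromosome 9, 23 on chromosome 14, the one on chromosome 2 from 25000001 to 30000000 with 24, and the one on chromosome 19 from 30000001 to 35000000 with 23. A further 16 windows kept a part, and 18 windows, with 343 intervals, kept none. The fullest window of the moved tiling held 26 intervals and lay on chromosome 10 from 92500001 to 97500000, across the border of the adjacent pair described above.

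Intervals in dense windows were slightly wider than the others by the stated rule. Their median width was 990.5 bp (95% order-statistic interval 974 to 1007, n = 794) against 956 bp (948 to 964, n = 3763), a difference of 34.5 bp. The interval width did not enter the rule. The lower quartiles differed by 26.2 bp (851 against 825 bp) and the upper quartiles by 64.5 bp (1150 against 1085 bp), and at the 90th percentile the difference was 185 bp (1450 against 1265 bp). By the stated tiling the gap between both sets thus grew toward the wide end. The distributions overlapped over nearly their whole range, with SDs of 391 and 332 bp. Intervals are not replicates of a condition and share the libraries they were called from, so these values carry no test. The order-statistic and binomial intervals treat intervals as independent.

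The difference in width was smaller under the moved windows. The 784 intervals in moved dense windows had a median of 968.5 bp (947 to 990) against 961 bp (954 to 969) for the rest, a difference of 7.5 bp. Their means differed by 30.0 bp (1034 against 1004 bp), their upper quartiles by 40.2 bp (1131 against 1091 bp) and their 90th percentiles by 101 bp (1375 against 1274 bp). The lower quartiles turned direction, with 826 bp in moved dense windows and 831 bp in the rest. The 334 intervals that were in dense windows of both tilings had a median of 998.5 bp (971 to 1019), and the 460 in dense windows of the stated tiling alone had 984 bp (962 to 1008). The 450 in dense windows of the moved tiling alone had 945.5 bp (928 to 972), and the 3313 in neither had 957 bp (949 to 966). Intervals crowded under the moved tiling alone thus had no higher median than those in no dense window, and the intervals of both medians overlapped.

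By count of intervals in the window, median width was 939 bp (911 to 965) in windows with 1 to 4 intervals and 944 bp (931 to 961) with 5 to 9. It was 962.5 bp (949 to 976) with 10 to 13, 962 bp (949 to 977) with 14 to 17 and 990.5 bp in dense windows. Just outside the threshold, the 204 intervals in windows with 17 had a median of 948 bp (894 to 984), and just inside it, the 162 in windows with 18 had 988 bp (932 to 1022). Among the dense windows themselves width did not grow with the count, at 1003 bp (982 to 1024) for windows with 18 or 19 intervals and 982 bp (951 to 1005) for those with 20 or more.

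**Figure D3:**
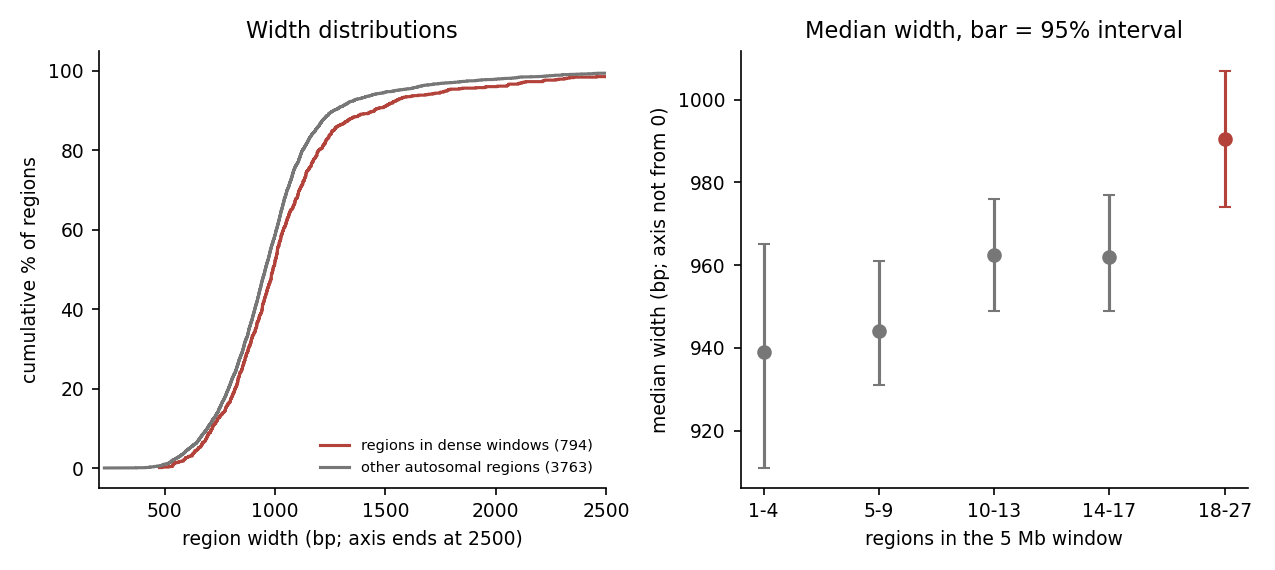
Left, cumulative percentage of intervals up to each width in bp for dense windows (red) and the other autosomal intervals (grey); right, median width in bp with its 95% order-statistic interval by the number of intervals in the 5 Mb window. The red curve lies to the right of the grey one above the lowest widths, and the medians run from 939 bp in the sparsest windows to 990.5 bp in the dense ones.

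The difference in median width had the same direction on 13 of the 16 autosomes with dense windows. It was largest on chromosome 13, with 1041 bp in dense windows and 949 bp elsewhere, followed by chromosome 19 (1019 against 949.5 bp) and chromosome 8 (1038 against 971 bp). It was opposite on chromosomes 5 (914 against 956 bp), 9 (916 against 963 bp) and 11 (973.5 against 1000 bp). Window by window, 28 of the 39 dense windows (71.8%) had a median above 956 bp, against 172 of the 346 other windows with at least 5 intervals (49.7%). The mark of 956 bp is the median of the other intervals, so the share of the other windows is largely set by it. The counts by chromosome and by window were made for the stated tiling only, and the difference in median was 7.5 bp under the moved windows. Dense windows ranged from 849.5 bp on chromosome 9 from 70000001 to 75000000 to 1135 bp on chromosome 3 from 105000001 to 110000000. The other windows ranged more widely, from 678 to 1213 bp, so every dense window lay within their range. They were more in number and held fewer intervals each, which widens a range. The overlap therefore says little about the difference in width.

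**Figure D4:**
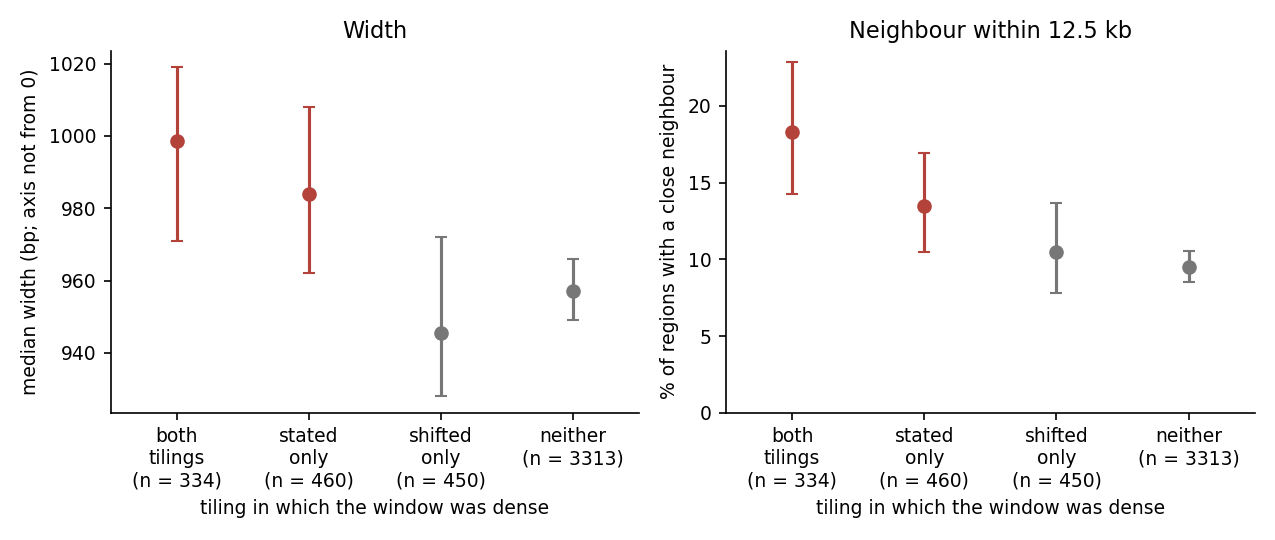
Median width in bp (left, bars are 95% order-statistic intervals) and percentage of intervals with another centre within 12.5 kb (right, bars are 95% exact binomial intervals) for intervals in windows that were dense in both tilings, in the stated tiling alone, in the tiling moved by 2.5 Mb alone, or in neither. Medians are 998.5, 984, 945.5 and 957 bp, and percentages are 18.3, 13.5, 10.4 and 9.48%. The percentages are not scaled to the density of the windows and follow in part from the choice of windows by their count.

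Wide intervals were present in most dense windows and in 6 of them there were 2 or more. Widths over 2000 bp were found in 32 of the 794 intervals (4.03%, exact binomial 95% interval 2.77 to 5.64%) and in 82 of the 3763 others (2.18%, 1.74 to 2.70%). Under the moved windows the shares were 3.06% (1.97 to 4.52%) and 2.39% (1.92 to 2.92%). The 32 lay in 25 windows, 14 windows had none, and the window on chromosome 2 from 115000001 to 120000000 had 3. At 1300 bp or more the shares were 13.6% (108 intervals, 11.3 to 16.2%) and 9.09% (342 intervals, 8.19 to 10.1%). Under the moved windows these were 12.6% (10.4 to 15.2%) and 9.30% (8.39 to 10.3%). Widths over 3000 bp were found in 2 intervals of dense windows (0.252%, 0.031 to 0.907%) and 10 others (0.266%, 0.128 to 0.488%), too few to compare. Intervals under 700 bp made up 8.82% (6.94 to 11%) of those in dense windows and 10.6% (9.61 to 11.6%) of the others.

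The widest interval in a dense window, on chromosome 2 from 115598195 to 115602204, was 4010 bp wide. Its nearest neighbour was 888 kb away, so it stood alone although its window was dense. The second, 3974 bp on chromosome 3 from 100858834 to 100862807, and the sixth, 2801 bp from 100833209 to 100836009, belonged to 1 tight group. Chromosome 15 held 2 of the 10 widest in different windows, 2984 bp from 10863283 to 10866266 and 2796 bp from 98218057 to 98220852. The fourth was an interval of 2935 bp on chromosome 1 from 36611084 to 36614018. Both intervals from chromosome 10 lay in its window with 21 intervals and spanned 2847 bp from 94784416 to 94787262 and 2708 bp from 94290251 to 94292958. The eighth and the ninth were 2751 bp on chromosome 14 from 64584349 to 64587099 and 2713 bp on chromosome 3 from 109154865 to 109157577. Of the 10, 4 had another centre within 12.5 kb.

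Close neighbours were more common in dense windows, which follows in part from the rule, since more intervals per window leave less room between them. Another centre lay within 12.5 kb of 123 of the 794 intervals (15.5%, 13 to 18.2%) and of 361 of the 3763 others (9.59%, 8.67 to 10.6%). The median distance to the nearest centre was 61.2 kb (quartiles 20.5 and 149 kb) against 118 kb (quartiles 40.4 and 277 kb). To set the density aside, each distance was divided by the mean spacing of its own window, which is 5 Mb over the number of centres. On this scale the medians were 0.254 (0.226 to 0.307) and 0.240 (0.228 to 0.250), and their intervals overlapped. A nearest centre closer than 0.05 of the mean spacing was found for 15.4% (12.9 to 18.1%) and 16.7% (15.5 to 17.9%). The contrast in raw distance between dense and other windows was thus not seen once distances were scaled to each window's own crowding. In the 334 intervals dense under both tilings, 18.3% (14.3 to 22.8%) had a neighbour within 12.5 kb. This share was not scaled, and it follows in part from the choice of these intervals by count in both tilings.

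Close neighbours were unevenly shared among the dense windows. In 7 windows no interval had another centre within 12.5 kb, and 9 windows had 5 or more such intervals, with a highest count of 8 of 20 on chromosome 10 from 55000001 to 60000000. Intervals with a close neighbour were a little wider than those without, at 1019 bp (956 to 1103, n = 123) and 987 bp (968 to 1004, n = 671). Among the intervals elsewhere the medians were 997 bp (970 to 1034, n = 361) and 952 bp (944 to 960, n = 3402). By the stated tiling, the medians of dense and other windows differed by 35 bp without a close neighbour and by 22 bp with one. These subsets were not compared under the moved windows. Of the 32 intervals over 2000 bp in dense windows, 12 had a close neighbour, against 17 of the 82 elsewhere. Among intervals of all widths the shares were 15.5% and 9.59%, so a higher share in dense windows follows in part from the rule.

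Chained at this distance, the 123 intervals (15.5% of 794) formed 54 groups: 45 of 2 intervals, 4 of 3, and 5 of 4 or more. The 361 such intervals elsewhere (9.59% of 3763) formed 171 groups, of which 154 had 2 intervals, 15 had 3 and 2 had 4 or more. A group adds each of its intervals to the count that chose the window, so large groups in dense windows follow in part from the rule. With each group counted once, 25 windows with 534 intervals reached 18 centres. None of the groups crossed the edge of a dense window. The largest group had 5 intervals over 29.6 kb on chromosome 3 from 100833209 to 100862807, with widths in order of position of 2801, 986, 593, 943 and 3974 bp. Its 2 outermost intervals were thus among the 10 widest in dense windows, and the middle one was under 700 bp. Distances between its consecutive centres were 3.19, 11.5, 2.89 and 8.69 kb.

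The 4 groups of 4 intervals differed in how even they were. On chromosome 13 from 38595066 to 38621313 the widths were 1127, 1122, 1126 and 1052 bp, and the centres were 8.82, 9.68 and 6.66 kb apart, and these widths were the most alike of the 4 groups. On chromosome 10 from 59715032 to 59745974 the widths were 1352, 1778, 1624 and 893 bp and the centres 10.1, 10.7 and 9.03 kb apart. On chromosome 15 from 12989054 to 13007226 the widths were 878, 1423, 911 and 1146 bp, within 18.2 kb. On chromosome 14 from 64581229 to 64602458 a single wide interval of 2751 bp stood among widths of 1009, 922 and 1090 bp. Of these 4 groups, the one on chromosome 14 was the only one with an interval over 2000 bp.

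Density beside the dense windows was also read, with the limit that windows were picked for a high count, so a drop at their edges is built into the rule. The 75 full windows next to a dense one held 1.98 intervals per Mb, and the 69 of them that were not dense themselves held 1.79 per Mb (8.96 ± 4.34 per window, SD over windows). The 376 full windows neither dense nor next to a dense one held 1.61 per Mb (8.07 ± 4.46 per window). The SDs describe the spread of single windows and not the error of the means, and the difference was not tested. The 69 and the 376 windows hold at most 17 each by the rule, while the 75 include 6 dense ones. Counts of 4 or fewer were found in 17.4% of the windows next to dense ones that were not dense themselves and in 25.3% of the windows further away. Outward from the edge in steps of 1 Mb, density was 2.14, 1.78, 2.09, 1.77 and 2.17 per Mb with other dense windows kept. With these left out, it was 1.86 per Mb in the first 1 Mb, 1.65 in the second and 2.01 in the third. It averaged 1.80 per Mb up to 5 Mb, 1.65 from 5 to 10 Mb and 1.83 from 10 to 15 Mb, against 1.64 in all full windows that were not dense. No steady decline with distance was seen.

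**Figure D5:**
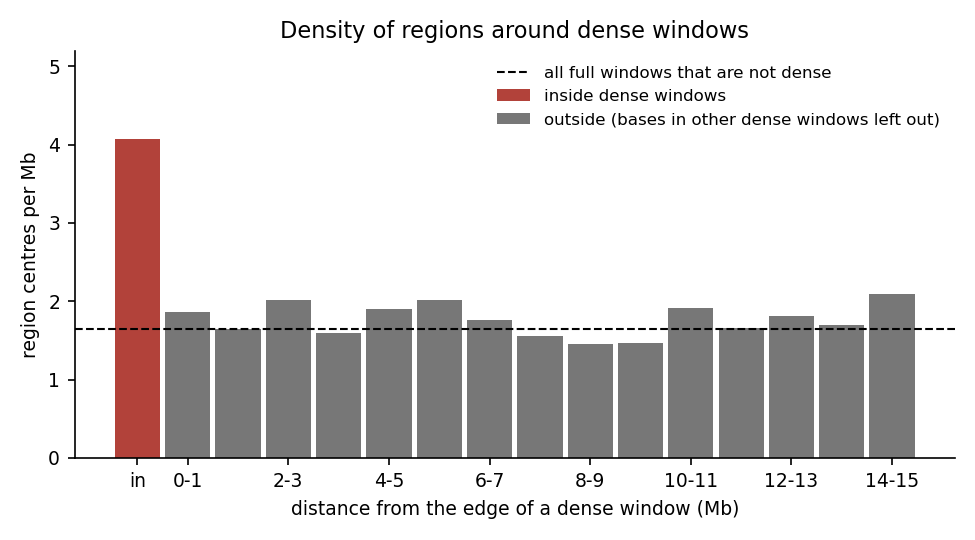
Interval centres per Mb inside dense windows (red) and in steps of 1 Mb outward from their edges (grey), with bases in other dense windows left out; the dashed line is the mean of all full windows that are not dense. Density is 4.07 per Mb inside and 1.86 per Mb in the first 1 Mb outside, and the grey bars vary from 1.46 to 2.10 per Mb with no steady decline; the drop at the edge follows from the choice of windows by their count.

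Single neighbours varied widely around these averages. On chromosome 5 the dense window from 120000001 to 125000000 with 21 intervals had windows with 1 and 4 beside it. On chromosome 15 the window from 10000001 to 15000000 with 18 had 17 before it and 0 after it. The window with 23 on chromosome 19 had 17 and 15 beside it, and that with 27 on chromosome 6 had 8 and 5. By the stated tiling, dense windows thus ranged from isolated ones to runs of high counts. Under the moved windows, the one on chromosome 5 kept none of its 21 intervals and that on chromosome 15 kept 13 of 18. Those on chromosomes 19 and 6 kept all of theirs.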

How the data were processed

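ChIP-seq was done on 6 libraries in 6 groups of 1. Per the submitters' processing notes, the tools were Bowtie2 2.2.2 and bedtools and the build mm9; their roles are not stated. The deposited file is 1 list of 3 columns (chromosome, start, end) in bp, with 0 columns of values per sample. How peaks were called and what made a region dynamic is not given in the sources used here. Read depth is unknown. The members, and the regions named (the 10 fullest windows, adjacent dense windows, the 10 widest intervals and groups of 4 or more), were chosen by rules written with earlier results of these data known; other windows named were chosen after their values were seen.

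Printed starts are 1-based. Centres were midpoints, and chromosome length was the largest interval end. Medians carry 95% binomial order-statistic intervals and shares exact Clopper-Pearson intervals, which cover counting error only. No test was made, because groups have 1 library each and positions alone carry no replicate error. Python 3.11.15 with scipy 1.17.1 was used, and the code was run on simulated lists built with the same windows and threshold. Such lists check the code and not the choice of windows. The alternatives changed the threshold, the tiling, the window size, the neighbour distance, the bins and the chromosomes kept. Gene tables on another build were not used.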

Additional observations from a re-analysis of the deposited data

How the results depend on the processing

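Alternatives were planned except 2 added after seeing the data: the comparison of widths with windows of 14 to 17 centres, and the moved tiling for close neighbours. Starting from 794 intervals in 39 dense windows, the number was 442 in 20 windows at a threshold of 20 centres, 1501 in 139 windows of 2.5 Mb with 9 or more, and 198 in 5 windows of 10 Mb with 36 or more. It was 1142 in 60 windows at a threshold of 16, 784 in 40 windows with the windows moved by 2.5 Mb, and 534 in 25 windows with each group of close intervals counted once. Including X or leaving out partial windows changed nothing. The width difference of 34.5 bp fell to 7.5 bp with the moved windows and was 65.4 bp between means. It was between 22 and 35 bp under the other planned settings, 28.5 bp against windows of 14 to 17, and between 30 and 38.5 bp with each autosome left out. The share with a close neighbour was 6.05% at 5000 bp and 29.1% at 25000 bp, which follows from the distance, and 13.8% with the moved windows. With each autosome left out it was 14.5 to 16.4%. The density beside dense windows stayed between 1.79 and 2.14 per Mb over all its alternatives. The share in the fullest bin was 25% with 0.5 Mb bins, which are smaller by construction, and 36.4 to 36.8% with each autosome left out. No paired analysis was possible because the list combines all libraries, with 1 per group, and leaving out a library was likewise not possible. Depth is unknown, and its effect on the list was not tested.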

Other observations

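By the same windows, chromosome X held 112 intervals in 29 windows and no dense one. Its fullest window, from 70000001 to 75000000, held 9 intervals, and the median width on X was 959 bp. In the moved tiling, the fullest windows after the one on chromosome 10 were on chromosome 9 from 67500001 to 72500000 with 25 intervals, on chromosome 2 from 67500001 to 72500000 with 24 and on chromosome 9 from 62500001 to 67500000 with 24. These windows were chosen after their values were seen.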
